A study of Mus musculus with 9 samples.

Results

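The genes described here are 39 genes of the lysosome, measured in myeloid cells washed out of the mouse peritoneal cavity. They were chosen by name, from known lysosomal biology: hydrolases other than the cathepsins and Lipa, membrane proteins, subunits of the proton pump, and the transcription factors that act on lysosomal genes. This choice, and that of the further lists below, was made with earlier results of these data known. All 39 were present among the 24532 genes of the deposited table. Of these, 37 reached an FPKM (fragments per kilobase of transcript, scaled to the library's mapped fragments) of at least 1 in at least 2 libraries and were tested with 10526 genes in all, while Gpnmb and Atp6v0d2 did not.

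The study sorted MHCII+ mononuclear cells from C57BL/6 mice at 8 weeks of age, and its title points to a pair of subsets that carry both CD11c and CD115 (the receptor encoded by Csf1r). SPM are the small peritoneal macrophages of the CD11c- CD115+ gate (2 libraries). P-IV.II is also labelled small peritoneal macrophages but was CD11c+ CD115+ (2 libraries), and P-IV.I, from the same CD11c+ CD115+ gate, is labelled peritoneal dendritic cells (2 libraries). The CD11c+ CD115- cells were split into type 2 dendritic cells (PcDC2, 2 libraries) and type 1 dendritic cells (PcDC1, 1 library). No group carries an engineered allele or a treatment in the labels, which also do not say which marker split P-IV.I from P-IV.II or whether the 2 libraries of a group came from separate animals, so a p-value here measures only the spread between these libraries.

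The lysosome is the acidic compartment in which cells break down what they take up by endocytosis and phagocytosis and what reaches it by autophagy. Its lumen is acidified by the vacuolar proton pump, a rotary machine with a membrane sector that carries protons and a cytosolic sector that hydrolyses ATP, and soluble hydrolases then cut sugars, sulfate esters, lipids and proteins. Loss of any of many of these enzymes causes a lysosomal storage disease in humans. Macrophages are known for strong degradation, whereas dendritic cells are known for milder proteolysis that spares peptides for presentation to T cells. TFEB and its relatives TFE3 and MITF are known in mouse and human cells to bind an E-box, the CLEAR element, near the start of many lysosomal genes.

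The summed levels of the marker genes went with the labels, though not every single marker did. Part of this follows from the sort, since the lists hold Csf1r (CD115) and Itgax (CD11c), which defined the gates. In P-IV.I, Csf1r was at 157 and 246 FPKM and Itgax at 105 and 94.8. The summed level of 9 macrophage markers was 5503 to 8076 FPKM for SPM, 1975 to 2896 for P-IV.II, 400.2 to 626 for P-IV.I, 59.3 to 85.4 for PcDC2 and 34.3 for PcDC1, where Csf1r, Fcgr1 and Mertk were listed at 0. The 5 dendritic cell markers summed to 18.3 to 25.8 FPKM for SPM, 53.5 to 68.6 for P-IV.II, 406 to 465 for P-IV.I, 578 to 818 for PcDC2 and 228 for PcDC1. Type 1 markers summed to 1977 FPKM in PcDC1 and to 60.5 to 193 in every other library, and type 2 markers to 2914 to 3157 in P-IV.I, 1931 to 2026 in PcDC2, 745 to 1475 in the macrophage libraries and 44.8 in PcDC1. Against its label, the type 2 marker Cd1d1 was at 28.0 to 38.4 FPKM in the macrophage libraries, 11.2 and 19.9 in P-IV.I and 5.93 and 5.30 in PcDC2. Sirpa and Irf4 had similar means in SPM (155 and 15.2) and PcDC2 (166 and 17.8). The macrophage marker Fcgr1 had a lower mean in P-IV.II (0.370) than in P-IV.I (0.692), and the type 1 marker Batf3 a higher mean in P-IV.II (104) than in PcDC2 (37.6). Among other cell types, B cell markers summed to 13.1 to 45.0 FPKM, the large peritoneal macrophage list to 11.8 to 86.6, T and NK cell markers to 1.86 to 9.21, mast cell markers to 0 to 43.5, neutrophil markers to 0 to 1.58 and mesothelial markers to 0 to 0.227. Of the mast cell markers, Kit was at 43.5 and 40.4 FPKM in PcDC2, where Mcpt4, Tpsb2 and Cma1 were listed at 0, while Tpsb2 reached 7.27 in PcDC1. The sum of 86.6 was that of PcDC1, where Timd4 was at 69.4 and Icam2 at 17.1. B cell markers were highest in SPM, at 40.8 to 45.0 FPKM, and Gata6, the defining factor of large peritoneal macrophages, stayed at or below 0.228 everywhere. Their part in the differences below was not tested. In sorted bulk samples, fewer cells of a type and less RNA per cell cannot be told apart. Library totals ran from 439597 to 647385 FPKM, with PcDC1 the highest, and 9115 to 9847 genes per library reached an FPKM of 1. The read depth behind these values is unknown.

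The promoters are shown because the lysosomal genes are known to share an E-box there, and because the members with and without it can then be read against their levels. RefSeq's promoter table (GRCm38.p6) gave an entry for 33 of the 39 genes, covering 250 bases before the annotated start and 50 after it. The letters TCACGTG, or CACGTGA on the other strand, were found in 11 of these 33 promoters (33.3%) and in 1160 of the 27025 genes in the table (4.29%). Their shared core CACGTG, which overlaps both, was in 8.09% of all genes, and the full palindrome TCACGTGA was in 4 members (12.1%) and in 1.12% of all genes. Lamp1, the gene of the most abundant lysosomal membrane glycoprotein, held 4 copies. Its 250 bases before the start (chr8:13158911-13159160, plus strand) are printed first, followed by 50-base windows around the match in Mcoln1 (the copy whose core begins at -45 from the start), Gla (-227), Naglu (-73), Lgmn (-49), Atp6v0d1 (-3) and Atp6v1a (-131). Capitals mark the motif.
Lamp1: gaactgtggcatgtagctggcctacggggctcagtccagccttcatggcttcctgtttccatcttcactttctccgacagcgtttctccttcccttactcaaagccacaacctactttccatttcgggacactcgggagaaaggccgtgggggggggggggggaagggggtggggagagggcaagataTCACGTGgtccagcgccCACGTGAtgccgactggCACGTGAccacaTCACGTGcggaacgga
Mcoln1: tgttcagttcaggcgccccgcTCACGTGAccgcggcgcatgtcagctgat
Gla: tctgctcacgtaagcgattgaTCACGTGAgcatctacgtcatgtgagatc
Naglu: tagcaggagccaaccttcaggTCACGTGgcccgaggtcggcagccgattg
Lgmn: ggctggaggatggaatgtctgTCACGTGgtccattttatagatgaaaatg
Atp6v0d1: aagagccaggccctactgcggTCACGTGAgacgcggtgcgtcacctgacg
Atp6v1a: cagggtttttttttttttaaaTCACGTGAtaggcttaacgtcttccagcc
The Mcoln1 window is chr8:3500452-3500501 on the plus strand and the Naglu window chr11:101069999-101070048 on the plus strand. The other windows are on the minus strand, at chrX:134601205-134601254 for Gla, chr12:102439114-102439163 for Lgmn, chr8:105566040-105566089 for Atp6v0d1 and chr16:44139363-44139412 for Atp6v1a. The Lgmn and Atp6v1a windows lie inside the annotated spans of these genes, chr12:102394082-102439728 and chr16:44085402-44139702. Their positions are thus counted from a start within the span and not from its outer end. Gaa, Glb1, Sgsh and Arsa held the motif as well. Arsb is shown as a window without the letters (250 bases before the start, chr13:93771429-93771678, plus strand). It was picked because its level moved the other way from Lamp1, so the pair says nothing on a link between letters and direction. Of the 12 members lower in the dendritic cell groups, 8 lacked the letters too.
Arsb: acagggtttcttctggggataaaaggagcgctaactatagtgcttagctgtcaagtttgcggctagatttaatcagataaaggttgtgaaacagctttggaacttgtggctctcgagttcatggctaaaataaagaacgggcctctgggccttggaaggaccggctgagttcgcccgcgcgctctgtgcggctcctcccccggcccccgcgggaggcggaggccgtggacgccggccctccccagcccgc
A match of letters is a description of the sequence and not a site of binding.

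Lamp1, Lamp2, Grn and further lysosomal genes were lower in the dendritic cell groups than in the macrophage groups, a few were higher, and the largest number did not pass the test. In the mean of P-IV.I and PcDC2 minus the mean of SPM and P-IV.II, 12 of the 37 tested members were lower at an adjusted p under 0.05 (limma, 2 libraries a group), against 10.3% of all tested genes. These were Lamp1, Lamp2, Gusb, Hexa, Naglu, Neu1, Npc2, Tpp1, Grn, Atp6v0c, Atp6v0d1 and Atp6v1b2. Arsb, Tfeb and Ppt1, 3 of 37, were higher, against 18.6% of all tested genes. The median change of the 37 was -0.43 on the log2(FPKM + 1) scale and that of all tested genes 0.15, and 29 of 37 members had a negative change, as had 39.4% of all genes. The 4 libraries of the dendritic cell groups lay wholly below the 4 of the macrophage groups for 10 members (9.48% of all genes) and wholly above them for 2, Arsb and Tfeb (19.6% of all genes). Of the 12 lower members, 3 held the TCACGTG letters, 8 did not and 1 had no promoter entry. None of the 3 higher members held them. Of the 22 that did not pass, 8 held them, 10 did not and 4 had no promoter entry.

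**Figure D1:**
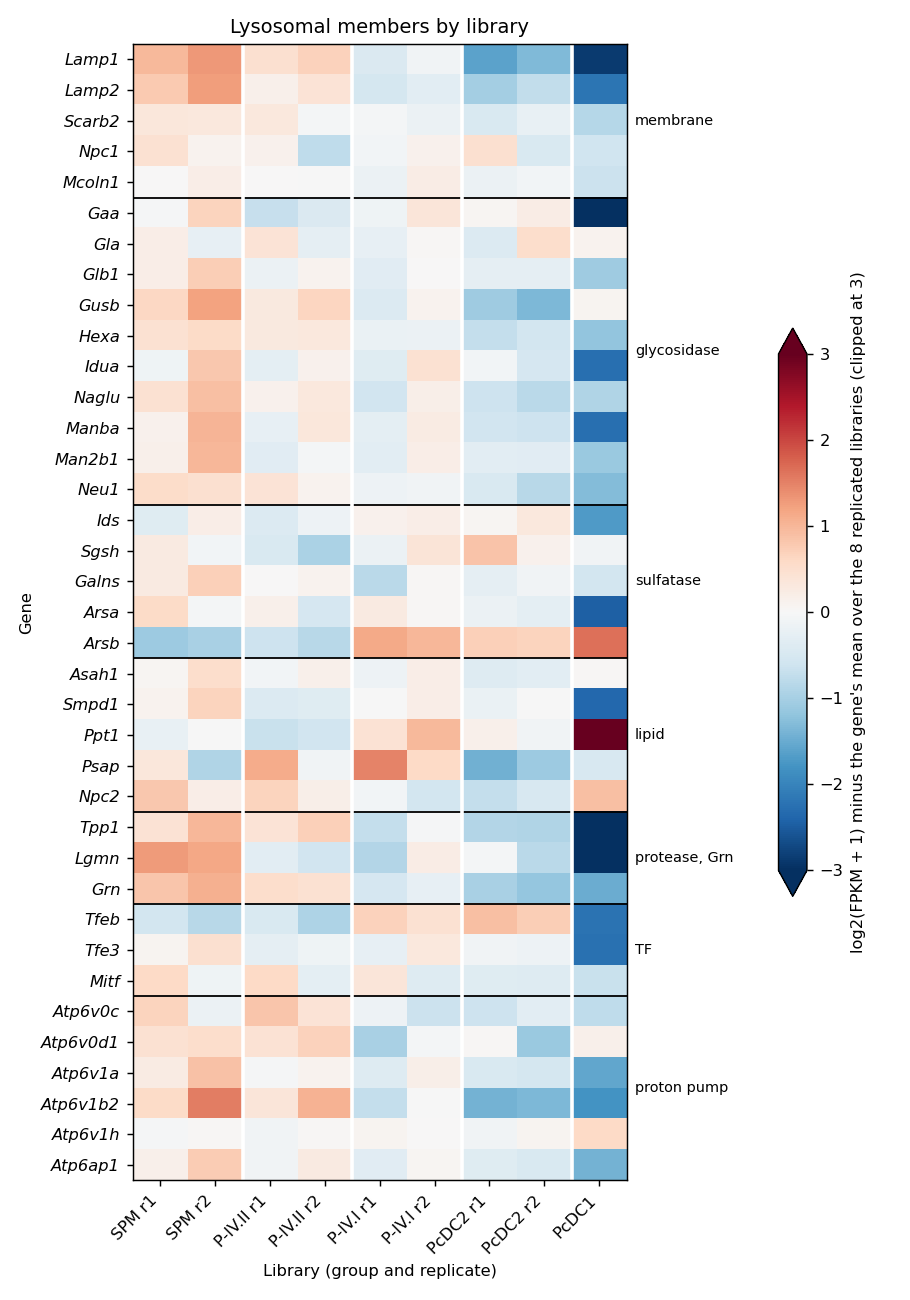
Each row is 1 of the 37 tested genes, grouped by role, and each column a library. The colour is log2(FPKM + 1) minus the gene's mean over the 8 replicated libraries, with colours clipped at 3 in either direction. Most rows run from red in SPM to blue in PcDC2, Arsb and Tfeb run the other way among these 4 groups, and PcDC1 is below all other libraries for 25 genes.

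The negative median of the members did not depend on the scale of the libraries, whereas the balance over all genes did. The median of all genes moved from 0.15 to -0.03 with median-ratio rescaling, to -0.00 with quantile normalization and to 0.30 with library totals made equal, and the split of all called genes from 1954 higher and 1082 lower to 1372 and 1593, 1421 and 1435, and 2710 and 951. Under the same settings the members gave 2 higher and 18 lower, 3 and 13, and 3 and 11. Their median stayed between -0.63 and -0.32. Hexa, Sgsh, Ppt1 and Atp6v1b2, among the members named below as passing, overlap another coding gene in the annotation, with a mean of 1.02 FPKM (Tmem202), 1.61 (Slc26a11), 25.3 (Cap1) and 0.11 (Slc18a1), and the strand used for counting is not given in the sources used here.

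**Figure D2:**
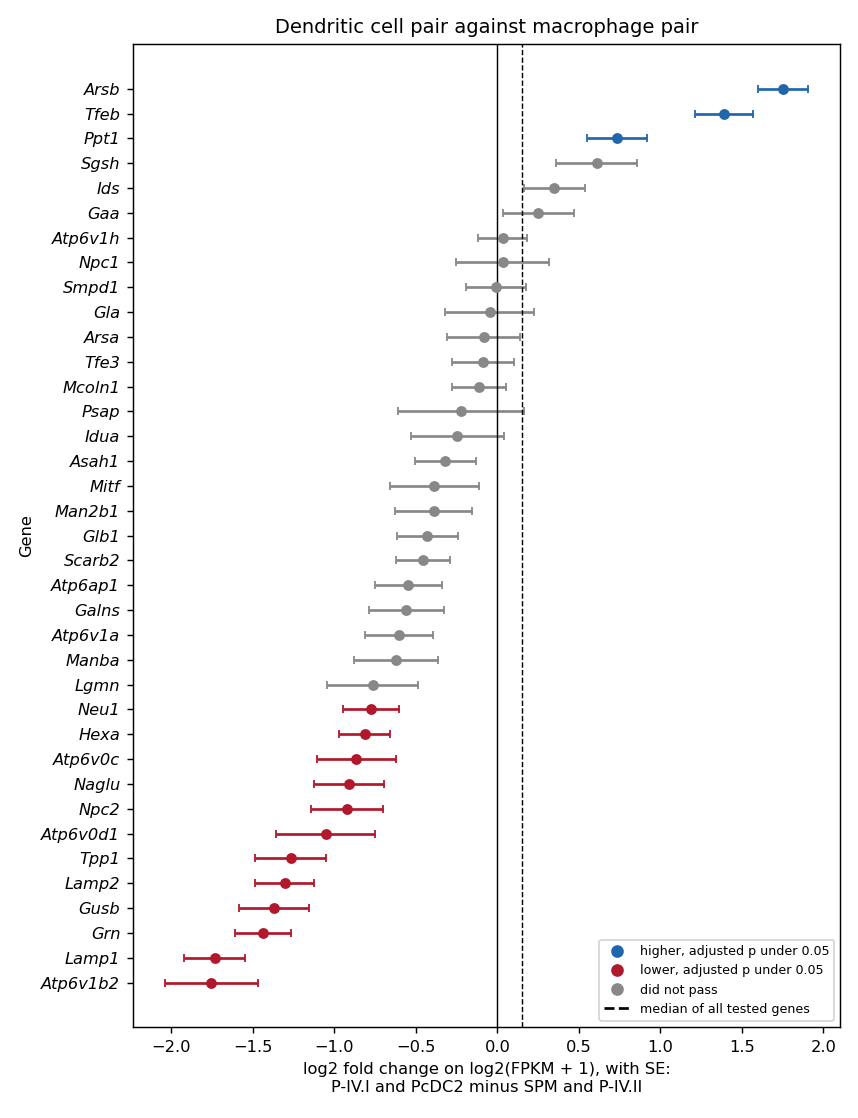
Each point is a tested gene's log2 fold change on log2(FPKM + 1), the mean of P-IV.I and PcDC2 minus the mean of SPM and P-IV.II, with its SE as the bar. The 12 genes in red are lower and the 3 in blue higher at an adjusted p under 0.05, and the dashed line is the median of all tested genes at 0.15.

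Among the membrane proteins, the LAMP glycoproteins that line the inner face of the lysosome were lower in dendritic cells. Lamp1 (chr8:13159161-13175338) was at 999.9 and 1253 FPKM for SPM, at 703 and 822 for P-IV.II, at 371 and 472 for P-IV.I, at 165 and 202 for PcDC2 and at 67.9 for PcDC1. No library of a group overlapped with the next group in this order, and PcDC1 was the lowest of the 9. The dendritic cell pair was 3.33-fold below the macrophage pair (log2 change -1.73 ± 0.19 SE, adjusted p = 0.00034). Lamp2, whose isoforms also serve chaperone-mediated autophagy, was at 283 and 394 FPKM in SPM cells and 184 and 218 in P-IV.II cells, against 114 and 131 in P-IV.I cells, 80.8 and 97.2 in PcDC2 cells and 35.4 in PcDC1 cells. It fell in the same order, again with no overlap (log2 change -1.31 ± 0.18, adjusted p = 0.00133). Scarb2, the receptor that carries glucocerebrosidase to lysosomes, ranged from 13.3 to 31.7 FPKM, Mcoln1, a calcium channel of the lysosomal membrane, from 14.3 to 27.1, and Npc1, which exports cholesterol, from 3.11 to 8.69. None of these 3 passed the test, with log2 changes of -0.45, -0.11 and 0.03. Gpnmb, a glycoprotein induced in stressed macrophages, was listed at no more than 0.0485 FPKM in any library.

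The glycosidases, which trim sugars from glycoproteins, glycolipids and glycosaminoglycans, gave 4 lower genes of 10 and none higher. The shares of all tested genes were 10.3% lower and 18.6% higher. Gusb, the beta-glucuronidase, was at 162 and 242 FPKM in the libraries of SPM, 127 and 163 in those of P-IV.II, 78.1 and 112 in those of P-IV.I, 49.6 and 40.4 in those of PcDC2 and 110.0 in that of PcDC1. The dendritic cell libraries of the replicated groups were all below the macrophage libraries, and PcDC1 lay above PcDC2 (log2 change -1.37 ± 0.21, adjusted p = 0.00236). Hexa, the alpha chain of beta-hexosaminidase, was at 451 and 489.8 FPKM for SPM, at 406 and 410.1 for P-IV.II, at 287 and 294 for P-IV.I, at 201 and 225 for PcDC2 and at 144 for PcDC1. Its replicates were close and its groups apart (log2 change -0.81 ± 0.16, adjusted p = 0.0061). Neu1, the sialidase, was at 20.4 and 19.0 FPKM in SPM cells and 18.2 and 14.7 in P-IV.II cells, against 12.0 and 12.4 in P-IV.I cells, 9.48 and 7.19 in PcDC2 cells and 4.88 in PcDC1 cells, again with no overlap between neighbouring groups (log2 change -0.78 ± 0.17, adjusted p = 0.0115). Naglu, which removes N-acetylglucosamine from heparan sulfate, was at 49.7 and 68.4 FPKM in the libraries of SPM, 39.4 and 44.8 in those of P-IV.II, 23.9 and 40.6 in those of P-IV.I, 23.0 and 20.1 in those of PcDC2 and 18.6 in that of PcDC1. The second P-IV.I library reached the range of P-IV.II (log2 change -0.91 ± 0.21, adjusted p = 0.0157). The call of Naglu was lost without P-IV.II replicate 2 or PcDC2 replicate 2, and that of Neu1 without PcDC2 replicate 2, with adjusted p values of up to 0.0674 and 0.058 over the alternatives.

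Man2b1, the alpha-mannosidase and the glycosidase with the highest mean level, did not pass. It was at 367 and 661 FPKM for SPM, at 259.9 and 317 for P-IV.II, at 264 and 376 for P-IV.I, at 263 and 258 for PcDC2 and at 152 for PcDC1, where the SPM libraries lay far apart, the lower one was within the range of P-IV.I, and P-IV.II overlapped P-IV.I and PcDC2 (log2 change -0.39 ± 0.24, adjusted p = 0.252). Gaa (glycogen), Gla (globosides), Glb1 (beta-galactosides), Idua (dermatan and heparan sulfate) and Manba (beta-mannosides) did not pass either. Over the replicated libraries their levels lay between 3.09 FPKM, in Gla, and 60.8 FPKM, in Glb1.

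Of the 5 sulfatases, 1 was higher in the dendritic cell pair, against 18.6% of all tested genes. None was lower, against 10.3% of all tested genes, and the other 4 did not pass. Arsb (chr13:93771679-93943016), the arylsulfatase that removes sulfate from dermatan and chondroitin sulfate, was at 8.97 and 9.85 FPKM in SPM cells and 12.8 and 10.9 in P-IV.II cells, against 45.3 and 41.5 in P-IV.I cells, 33.6 and 33.0 in PcDC2 cells and 65.8 in PcDC1 cells. Its replicates differed little, and every dendritic cell library was above every macrophage library (log2 change 1.75 ± 0.15, adjusted p = 0.000116, 3.37-fold). Ids, which acts on iduronate sulfate and had the highest mean among the sulfatases, was at 30.9 and 46.1 FPKM in the libraries of SPM, 29.7 and 35.9 in those of P-IV.II, 43.2 and 45.8 in those of P-IV.I, 41.2 and 50.1 in those of PcDC2 and 11.6 in that of PcDC1. SPM overlapped each other replicated group, P-IV.II lay below P-IV.I and PcDC2, and the gene did not pass (log2 change 0.35 ± 0.19, adjusted p = 0.202). Sgsh, the heparan N-sulfatase, was at 6.62 and 5.04 FPKM for SPM, at 3.64 and 2.28 for P-IV.II, at 4.66 and 7.30 for P-IV.I, at 10.5 and 5.96 for PcDC2 and at 4.89 for PcDC1. It passed only in P-IV.II minus PcDC2 (log2 change -1.20 ± 0.35, adjusted p = 0.0444), a call that held under 5 of 18 alternatives, with adjusted p values of up to 0.234, and was lost without each of the 8 libraries in turn, among other settings. Galns, a sulfatase of keratan sulfate, and Arsa, which acts on sulfatide, did not pass. Galns lay between 5.08 and 16.5 FPKM and Arsa between 9.39 and 20.7 in the replicated libraries.

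Genes for lipid breakdown and lipid binding went in both directions. Ppt1 (chr4:122836077-122859175), the thioesterase that removes palmitate from proteins, was at 72.6 and 84.5 FPKM in SPM cells and 53.2 and 56.8 in P-IV.II cells, against 115 and 168 in P-IV.I cells, 94.3 and 79.3 in PcDC2 cells and 1325 in PcDC1 cells. PcDC2 replicate 2 lay within SPM, P-IV.I was above P-IV.II, and PcDC1 stood apart from every other library. The gene passed as higher in the dendritic cell pair (log2 change 0.73 ± 0.18, adjusted p = 0.02), a call lost under 6 of 18 alternatives, with adjusted p values of up to 0.085. These were median-ratio rescaling and leaving out either P-IV.II library, P-IV.I replicate 2 or either PcDC2 library. Npc2, which hands cholesterol to NPC1, was at 154 and 102 FPKM in the libraries of SPM, 141 and 99.2 in those of P-IV.II, 83.6 and 59.5 in those of P-IV.I, 52.9 and 62.7 in those of PcDC2 and 164 in that of PcDC1. The dendritic cell libraries of the replicated groups were all lower (log2 change -0.92 ± 0.22, adjusted p = 0.0163), and the call was lost without P-IV.I replicate 2 or PcDC2 replicate 1, with adjusted p values of up to 0.0665.

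Psap, the precursor of the saposins that lift glycolipids to their hydrolases, had the highest mean level of the 39 genes. It was at 1196 and 505 FPKM for SPM, at 2024 and 875 for P-IV.II, at 2625 and 1430.0 for P-IV.I, at 346 and 444 for PcDC2 and at 672 for PcDC1. Replicate 1 was above replicate 2 in SPM, P-IV.II and P-IV.I by more FPKM than the means of SPM and P-IV.II, or of P-IV.II and P-IV.I, differed, and only the PcDC2 libraries lay below all 6 of these (log2 change -0.22 ± 0.39, adjusted p = 0.703). Asah1, the acid ceramidase, lay between 189 and 352 FPKM and Smpd1, the acid sphingomyelinase, between 19.0 and 41.5 in the replicated libraries. Neither passed.

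Of the proteases and the granulin precursor, Grn and Tpp1 were lower in the dendritic cell pair and Lgmn did not pass. Grn, the precursor of the granulins that support lysosomal function, was at 873 and 1029 FPKM in SPM cells and 706 and 669 in P-IV.II cells, against 344 and 416 in P-IV.I cells, 248 and 219 in PcDC2 cells and 173 in PcDC1 cells. Each group lay wholly below the one before it (log2 change -1.44 ± 0.17, adjusted p = 0.000573). Tpp1, the tripeptidyl peptidase, was at 79.8 and 118 FPKM in the libraries of SPM, 78.9 and 97.8 in those of P-IV.II, 35.9 and 58.0 in those of P-IV.I, 31.5 and 31.0 in those of PcDC2 and 6.54 in that of PcDC1. The macrophage libraries of both groups overlapped and lay above all dendritic cell libraries (log2 change -1.27 ± 0.22, adjusted p = 0.00375). Lgmn, the asparaginyl endopeptidase that also cuts the invariant chain and activates cathepsins, was at 159.6 and 145 FPKM for SPM, at 51.4 and 42.8 for P-IV.II, at 34.8 and 76.2 for P-IV.I, at 61.7 and 36.3 for PcDC2 and at 5.08 for PcDC1. It was high in SPM alone among the replicated groups, the other 3 groups overlapped, and it did not pass between the pairs (log2 change -0.77 ± 0.28, adjusted p = 0.0761).

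Of the 3 transcription factors, Tfeb (chr17:47737037-47792416) differed between the pairs and in the direction opposite to the 12 lower genes. It was at 27.0 and 22.0 FPKM in SPM cells and 28.7 and 20.4 in P-IV.II cells, against 65.2 and 55.2 in P-IV.I cells, 75.6 and 66.9 in PcDC2 cells and 7.78 in PcDC1 cells. The dendritic cell libraries of the replicated groups were all above the macrophage libraries, and the PcDC1 library was below all of them (log2 change 1.39 ± 0.18, adjusted p = 0.000911, 2.62-fold). Tfe3 was at 49.7 and 65.5 FPKM in the libraries of SPM, 38.3 and 42.9 in those of P-IV.II, 39.4 and 58.2 in those of P-IV.I, 43.3 and 41.9 in those of PcDC2 and 9.09 in that of PcDC1. The dendritic cell libraries overlapped those of the macrophages, although both SPM libraries lay above those of P-IV.II and PcDC2 (log2 change -0.09 ± 0.19, adjusted p = 0.759). Mitf was low throughout, at 1.68 and 0.615 FPKM for SPM, at 1.64 and 0.422 for P-IV.II, at 1.24 and 0.347 for P-IV.I, at 0.364 and 0.350 for PcDC2 and at 0.0988 for PcDC1, with a wide spread between replicates (log2 change -0.39 ± 0.27, adjusted p = 0.324).

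**Figure D3:**
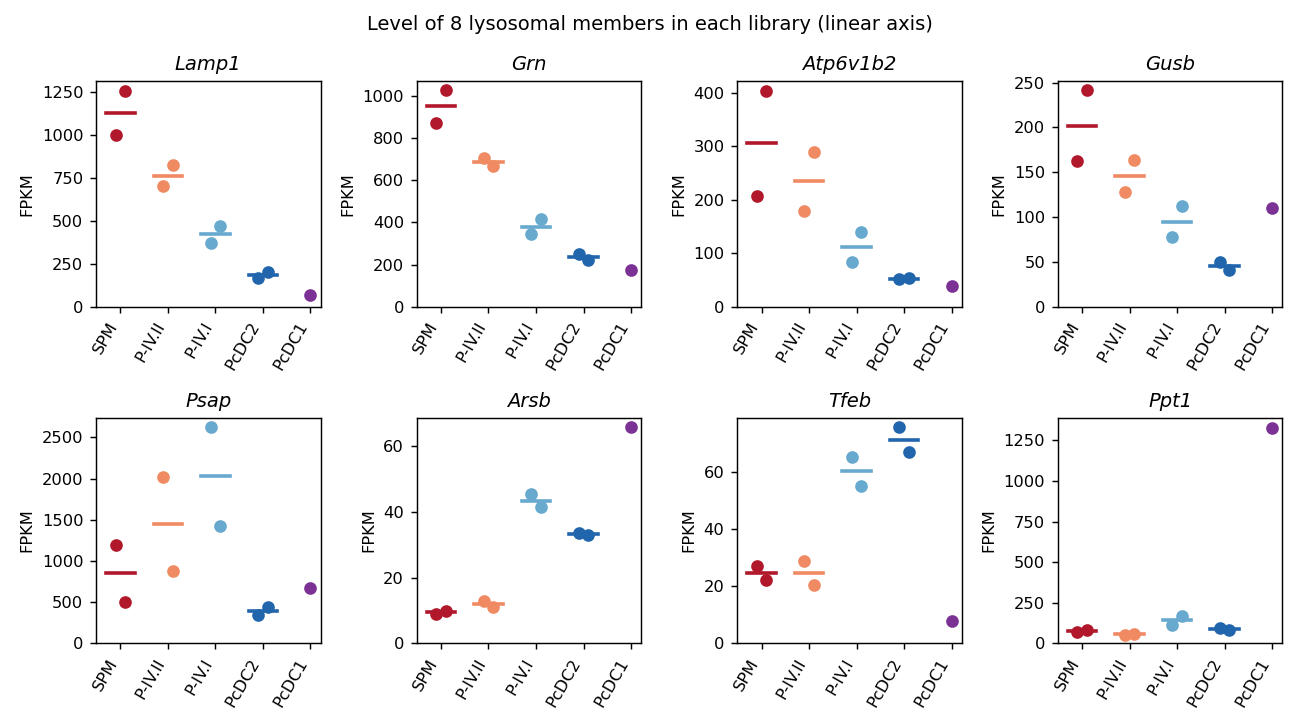
Level in FPKM (linear axes from 0) of 8 lysosomal genes in each library, by group. Points are libraries and horizontal lines the mean of the 2 libraries of a group, with PcDC1 shown as its only library. Lamp1 falls from 999.9 and 1253 in SPM to 165 and 202 in PcDC2, Arsb and Tfeb are high in P-IV.I and PcDC2, and Ppt1 reaches 1325 in PcDC1.

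In the proton pump, 3 of 6 tested members were lower in the dendritic cell pair, against 10.3% of all tested genes. None of the 11 further tested subunits outside the 39 genes, given below, passed in this contrast. Atp6v1b2, the B2 subunit of the ATP-hydrolysing sector, was at 207 and 404 FPKM in SPM cells and 179 and 289 in P-IV.II cells, against 83.9 and 139 in P-IV.I cells, 51.2 and 53.9 in PcDC2 cells and 39.2 in PcDC1 cells. All dendritic cell libraries were below all macrophage libraries (log2 change -1.75 ± 0.28, adjusted p = 0.00284, 3.37-fold). Atp6v0c, the proton-carrying ring subunit, was at 524 and 294 FPKM in the libraries of SPM, 588 and 439.9 in those of P-IV.II, 297 and 213 in those of P-IV.I, 216 and 264 in those of PcDC2 and 195 in that of PcDC1. SPM replicate 2 reached the dendritic cell range (log2 change -0.86 ± 0.24, adjusted p = 0.0316). Near-identical processed copies of Atp6v0c exist in the mouse genome, so its level is uncertain.

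The d subunit, which links the pump's sectors, exists as the widely expressed Atp6v0d1 and the osteoclast form Atp6v0d2. Atp6v0d1 was at 134 and 138 FPKM for SPM, at 130.3 and 156 for P-IV.II, at 48.4 and 93.0 for P-IV.I, at 99.0 and 43.8 for PcDC2 and at 108 for PcDC1. The dendritic cell libraries of the replicated groups were all lower but spread widely within each group (log2 change -1.05 ± 0.30, adjusted p = 0.0335). Atp6v0d2 was at 0.202 and 0.184 FPKM for SPM, at 0.0668 and 0.343 for P-IV.II, and was listed at 0 in every dendritic cell library, too low to be tested. The call of Atp6v0c was lost under 6 of 18 alternatives, with adjusted p values of up to 0.111, namely the most lenient filter and leaving out SPM replicate 1, P-IV.II replicate 1, P-IV.I replicate 2 or either PcDC2 library. That of Atp6v0d1 was lost under 8, with values of up to 0.109, namely that filter, library totals made equal, and leaving out either SPM library, either P-IV.II library, P-IV.I replicate 1 or PcDC2 replicate 2. Atp6v1a, the catalytic A subunit, was at 38.9 and 61.3 FPKM in SPM cells and 31.6 and 35.4 in P-IV.II cells, against 24.7 and 36.7 in P-IV.I cells, 23.6 and 22.3 in PcDC2 cells and 10.4 in PcDC1 cells, and passed only in PcDC2 minus SPM (log2 change -1.06 ± 0.30, adjusted p = 0.0402). Atp6v1h, a regulatory subunit, stayed between 39.7 and 46.0 FPKM in the 8 replicated libraries, and Atp6ap1, an assembly subunit, between 215 and 503, and neither passed.

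The highest group mean was in SPM for most lysosomal genes. Of the 37 tested genes, 27 were highest by group mean for SPM (24.0% of all tested genes), 2 for P-IV.II (20.4%), 4 for P-IV.I (19.7%) and 4 for PcDC2 (35.9%). The 2 in P-IV.II were pump subunits, Atp6v0c and Atp6v0d1. Lamp1, Lamp2, Hexa, Neu1 and Grn, 5 of 37, fell from SPM to P-IV.II to P-IV.I to PcDC2 with every library of a group above every library of the next, as did 1.97% of all tested genes. This count was made after the values were seen.

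Type 2 dendritic cells were also compared with SPM alone. In PcDC2 minus SPM, 12 of 37 members were lower (8.46% of all tested genes) and Arsb and Tfeb were higher (11.2%), with a median of -0.72 for the members and 0.13 for all genes. The 12 were Lamp1, Lamp2, Gusb, Hexa, Naglu, Neu1, Npc2, Tpp1, Lgmn, Grn, Atp6v1a and Atp6v1b2. Lamp1 fell by 2.61 on the log2 scale (SE 0.26, adjusted p = 0.000332), Atp6v1b2 by 2.44 (SE 0.40, adjusted p = 0.00393), Gusb by 2.12 (SE 0.30, adjusted p = 0.00194) and Grn by 2.02 (SE 0.24, adjusted p = 0.000793). Arsb rose by 1.72 (SE 0.22, adjusted p = 0.00101). The count of 14 went to 9 without PcDC2 replicate 1 and to 7 without PcDC2 replicate 2, and leaving out SPM replicate 2 gave 11. Lamp1, Lamp2, Gusb, Grn, Atp6v1b2, Arsb and Tfeb passed under all 18 alternatives, and each of the other 7 lost its call without at least 1 library of SPM or PcDC2. All-gene calls went from 1178 higher and 891 lower to 950 and 1087 with median-ratio rescaling.

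Inside the CD11c+ CD115+ gate, where P-IV.I was compared with P-IV.II, 3 of 37 members passed. This share, 8.11%, was near the 9.61% of all tested genes that passed in either direction. Arsb (log2 change 1.79 ± 0.22, adjusted p = 0.0026), Ppt1 (1.32 ± 0.26, adjusted p = 0.0187) and Tfeb (1.28 ± 0.26, adjusted p = 0.0196) had the higher level in P-IV.I, against 6.51% of all tested genes. No member was lower by limma at this threshold, against 3.11% of all genes, although 12 of 37 members had an unadjusted p under 0.05 in either direction, as had 27.1% of all genes. Grn, at -0.86 ± 0.24 with an adjusted p of 0.0652, and Lamp1, at -0.86 ± 0.26 with an adjusted p of 0.0841, did not pass. The members' median of -0.12 turned to 0.11 with library totals made equal, so no direction is given for the whole set. The median of all tested genes moved as well, from 0.19 to 0.40. With median-ratio rescaling the medians were -0.30 for the members and -0.01 for all genes, and with quantile normalization -0.17 and 0.005. The members' median was thus below that of all genes in each of these settings. Ppt1 and Tfeb did not pass without P-IV.II replicate 2 or P-IV.I replicate 2, Ppt1 also not without P-IV.II replicate 1 and Tfeb also not without P-IV.I replicate 1, and Arsb passed without each of the 8 libraries. Median-ratio rescaling added Lamp1 and Grn as lower and moved all-gene calls from 685 higher and 327 lower to 466 and 518. With the replicate number as a block, Lamp1, Tpp1, Grn and Atp6v1b2 were lower, but same-numbered libraries were not taken as pairs.

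The difference between dendritic cells and macrophages was set side by side inside and outside the gate in an interaction, P-IV.I minus P-IV.II less PcDC2 minus SPM. No member passed by limma, against 1.11% of all tested genes in either direction, and 8 of 37 had an unadjusted p under 0.05, as had 10.2% of all genes. The interaction was positive for 33 of 37 members and for 53.7% of all genes, with medians of 0.65 and 0.05. A positive value means a difference that is less negative, or more positive, inside the gate than outside it. Lamp1 was at 1.75 ± 0.37 (adjusted p = 0.0924), Gusb at 1.50 ± 0.43 (adjusted p = 0.218) and Grn at 1.16 ± 0.34 (adjusted p = 0.243).

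**Figure D4:**
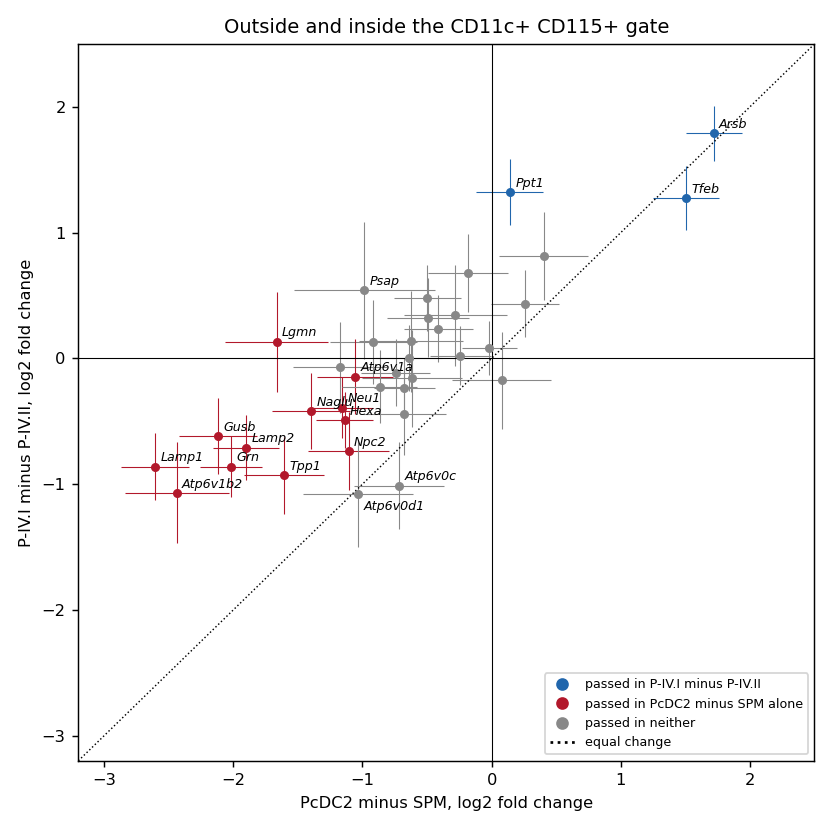
Each point is a tested lysosomal gene, with the change from SPM to PcDC2 on the horizontal axis and that from P-IV.II to P-IV.I on the vertical axis, both as log2 fold changes with their SE as bars. Blue genes passed in the comparison inside the gate, red ones in PcDC2 minus SPM alone, and grey ones in neither. Lamp1 is at -2.61 and -0.86, and Arsb, at 1.72 and 1.79, is near the dotted line of equal change.

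Among the members, none passed between the macrophage groups or between P-IV.I and PcDC2. In P-IV.II minus SPM, no member passed by limma (0.238% of all tested genes higher, 0.903% lower), and 5 of 37 had an unadjusted p under 0.05, as had 11% of all genes. A negative change was found for 32 of 37 members and for 56.4% of all genes, with medians of -0.42 and -0.06. In P-IV.I minus PcDC2, no member passed either (0.599% higher, 0.133% lower), and 6 had an unadjusted p under 0.05, as had 7.01% of all genes. The change was positive for 31 of 37 members and for 49% of all genes, with medians of 0.29 and -0.01. Psap had the largest value there, at 2.30 ± 0.55 with an adjusted p of 0.152, and Lamp1 was at 1.19 ± 0.26 with an adjusted p of 0.121.

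Macrophages and dendritic cells were also compared across the gates. In P-IV.I minus SPM, Lamp1, Lamp2, Lgmn and Grn were lower (4.58% of all tested genes) and Arsb and Tfeb higher (6.41%). Lgmn was at -1.55 ± 0.40 (adjusted p = 0.0448), a call that held under 7 of 18 alternatives. It was lost with library totals made equal and with quantile normalization, among other settings. Lamp2 was at -1.44 ± 0.26 (adjusted p = 0.00971) and Arsb at 2.09 ± 0.22 (adjusted p = 0.000984). Of these 6, Arsb alone passed without SPM replicate 2 and without P-IV.I replicate 1. In P-IV.II minus PcDC2, 8 members were higher (7.52% of all tested genes), namely Lamp1, Lamp2, Gusb, Hexa, Neu1, Tpp1, Grn and Atp6v1b2, and Sgsh, Arsb and Tfeb were lower (13.2%). Atp6v1b2 was at 2.10 ± 0.40 (adjusted p = 0.00891), Lamp1 at 2.05 ± 0.26 (adjusted p = 0.0014) and Tfeb at -1.52 ± 0.26 (adjusted p = 0.00488). The count of 11 went to 5 without P-IV.II replicate 2, to 5 without PcDC2 replicate 1 and to 4 without PcDC2 replicate 2, and Lamp1, Arsb, Grn and Tfeb passed in all of these. All these comparisons share groups with one another, so they are not separate evidence.

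Summed over the 39 genes, lysosomal transcripts took 1.46% ± 0.248 of the FPKM total for SPM (SD, n = 2), 1.15% ± 0.0866 for P-IV.II, 1.20% ± 0.0205 for P-IV.I, 0.621% ± 0.0117 for PcDC2 and 0.592% for PcDC1. P-IV.I thus lay with P-IV.II and not with PcDC2. That position rested in part on Psap: without it, a step chosen after seeing the data, the shares were 1.29% ± 0.329, 0.881% ± 0.0596, 0.757% ± 0.142, 0.537% ± 0.00282 and 0.488%. In FPKM the 39 genes summed to 7068 ± 433 for SPM, 6152 ± 595 for P-IV.II, 5463 ± 372 for P-IV.I, 2904 ± 64.5 for PcDC2 and 3832 for PcDC1. The membrane proteins fell most by sum, from 1529 ± 258 FPKM in SPM to 319 ± 37.9 in PcDC2, while the sulfatases went from 84.8 ± 8.27 to 107 ± 2.72. Most of the membrane protein fall lay in Lamp1, with means of 1126 and 184 FPKM, and Lamp2, with 338 and 89.0. The means of Scarb2 went from 31.3 to 19.3, of Mcoln1 from 25.1 to 21.1 and of Npc1 from 7.57 to 6.38.

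**Figure D5:**
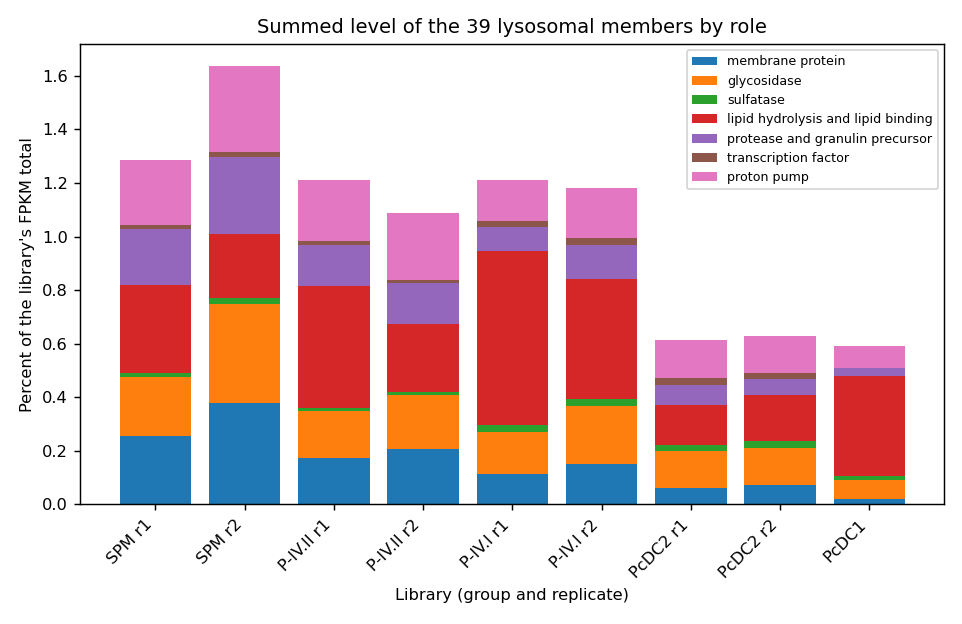
Summed FPKM of the 39 genes as a percentage of each library's FPKM total, stacked by role, with 1 bar per library. The SPM bars reach 1.29% and 1.64%, the P-IV.II and P-IV.I bars 1.09% to 1.21%, and the PcDC2 and PcDC1 bars 0.592% to 0.629%.

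The PcDC1 library had low levels of most lysosomal genes and very high Ppt1. With 1 library there is no replicate check and no test, and it also differed from the others in its FPKM total, so only its place in the range is given. It was below all 8 other libraries for 25 of 37 members (39.2% of all tested genes) and above all of them for Arsb, Ppt1, Npc2 and Atp6v1h (26.9% of all genes). Ppt1, at 1325 FPKM, was 7.87 times the highest other library, where Arsb was 1.45, Atp6v1h 1.44 and Npc2 1.07 times it. At the other end, Gaa was at 2.10 FPKM in PcDC1 against a lowest other library of 17.1, Lgmn at 5.08 against 34.8, Tpp1 at 6.54 against 31.0, Arsa at 1.70 against 9.39 and Tfeb at 7.78 against 20.4.

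Further lysosomal genes, in 5 lists outside the 39, were compared between the dendritic cell pair and the macrophage pair. The shares of all tested genes to read these counts against are those given for this contrast, 18.6% higher and 10.3% lower. Among 28 tested further hydrolases and cofactors, 12 were lower and 5 higher. Pld3, an exonuclease of single-stranded nucleic acids, was at 180.0 and 179 FPKM in the libraries of SPM, 152 and 156 in those of P-IV.II, 16.5 and 30.4 in those of P-IV.I, 6.89 and 9.26 in those of PcDC2 and 0.452 in that of PcDC1 (log2 change -3.53 ± 0.22, adjusted p = 2.62e-05). Pla2g15, the lysosomal phospholipase A2, was at 74.4 and 106 FPKM in SPM and at 2.77 and 1.29 in PcDC2 (log2 change -3.42 ± 0.26, adjusted p = 5.68e-05). Both were far below the macrophage libraries in every dendritic cell library. Acp5, the tartrate-resistant acid phosphatase, was among the higher genes (log2 change 1.74 ± 0.18, adjusted p = 0.000249).

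The other membrane proteins gave 5 lower and 2 higher of 24 tested. Slc11a1, the phagosomal metal transporter known as NRAMP1, was at 172 and 249 FPKM in the libraries of SPM, 93.1 and 105 in those of P-IV.II, 16.0 and 24.7 in those of P-IV.I, 0.520 and 0.553 in those of PcDC2 and 13.3 in that of PcDC1. Its groups were wholly apart (log2 change -4.67 ± 0.20, adjusted p = 6e-06), and its interaction of 4.82 ± 0.41 passed (adjusted p = 0.00609). The 2-pore channel gene Tpcn1 was higher (log2 change 1.22 ± 0.17, adjusted p = 0.00121), and Litaf, a membrane adaptor (-1.11 ± 0.31, adjusted p = 0.031), and Clcn7, the chloride-proton exchanger (-1.10 ± 0.25, adjusted p = 0.0125), were lower. Of the genes that sort enzymes to lysosomes, 4 of 15 were higher and 1 lower. The higher ones were the sorting receptor Sorl1 (log2 change 1.63 ± 0.21, adjusted p = 0.000933), the adaptor Gga2 (1.19 ± 0.21, adjusted p = 0.00409), Gnptab, which starts the mannose 6-phosphate tag (1.08 ± 0.17, adjusted p = 0.00232), and Sumf1, which activates all sulfatases (0.97 ± 0.19, adjusted p = 0.00639).

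Nutrient sensing on the lysosomal surface gave 3 higher and 2 lower of 16, shares near those of all genes. Rraga (log2 change 1.84 ± 0.39, adjusted p = 0.0102) and Rragb (1.44 ± 0.26, adjusted p = 0.00443), both GTPases that bring mTORC1 to the lysosome, were higher. Lamtor2 (-0.92 ± 0.28, adjusted p = 0.0405) and Lamtor3 (-0.90 ± 0.20, adjusted p = 0.012), parts of the Ragulator scaffold that anchors them, were lower. None of 11 other tested proton pump subunits passed by limma in this contrast, and 2 had an unadjusted p under 0.05, as had 41.1% of all genes. Atp6v1e1, at -0.54 ± 0.23 with an adjusted p of 0.114, and Atp6v0b, at -0.51 ± 0.18 with an adjusted p of 0.0733, had the largest changes and did not pass.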

How the data were processed

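RNA of sorted peritoneal cells from 9 libraries was made into cDNA with the SMARTer Ultra low input kit and sequenced on an Illumina NovaSeq, per the labels' protocols. The authors deposited FPKM values for 24532 genes, labelled as normalized. Per the submitters' processing notes, the build was mm10 and the tools were Cufflinks, HISAT2 2.1.0, StringTie 1.3.4d and bcl2fastq 1.8.4, listed without order or settings, and how the FPKM were normalized is not given in the sources used here. No reads could be recovered from the steps between low values: among 643 low genes searched, 4.98% lay within 1% of the commonest ratio. Depth is therefore unknown, and no counting interval is given.

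Values were analysed as log2(FPKM + 1), which understates changes of low genes. Genes that reached 1 FPKM in 2 or more libraries were kept (10526; 8597 genes were at 0 in every library). limma 3.58.1 (R 4.3.3) fitted group means over all 9 libraries, with PcDC1 adding no residual, moderated variances with a trend and a Benjamini-Hochberg adjustment over all tested genes, at a threshold of 0.05. There were 4 residual and 4.02 prior degrees of freedom. Of 8 contrasts tested, the pair contrast averages P-IV.I with PcDC2 and SPM with P-IV.II. The code was tested on simulated data.

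Each member is described. Those passing in a contrast, the highest in each role, the transcription factors and both d subunits are given by library, and from each further list up to 4 passing genes with the largest change in the pair contrast. Some results of these lists are not reported here. The members and lists were chosen with earlier results of these data known. Alternatives covered the pseudocount, the filter, rescaling, the variance trend, the samples fitted, a replicate block and leaving out each library. Gene coordinates and promoters come from RefSeq on GRCm38.p6, whose coordinates are those of mm10. Of the members, 9 overlap another coding gene.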

Additional observations from a re-analysis of the deposited data

How the results depend on the processing

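Limits first: groups hold 2 libraries (PcDC1 has 1), nothing states that these are separate animals, depth is unknown and the authors' normalization is not described. Of the 49 calls of lysosomal genes, 22 held under all 18 alternatives and no value reversed. The pair contrast gave 10 to 20 calls over the alternatives (15 as reported), which included 10 to 15 of the 15. Leaving out 1 library at a time gave 7 to 14 calls in PcDC2 minus SPM (14), 1 to 3 for P-IV.I against P-IV.II (3), 1 to 6 in P-IV.I minus SPM (6) and 4 to 13 in P-IV.II minus PcDC2 (11). Median-ratio rescaling gave 10 calls in P-IV.I minus SPM and 5 for P-IV.I against P-IV.II, and fitting only the groups compared gave 3 (Lamp2, Arsb and Tfeb) and 1 (Arsb). The cause was not tested.

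Summed over the members, the log2 ratio to SPM was -0.88 for PcDC1, -0.37 for P-IV.I, -0.20 for P-IV.II and -1.28 for PcDC2. With library totals made equal PcDC1 moved to -1.30. With median-ratio rescaling PcDC1 was at -0.74, P-IV.I at -0.58 and PcDC2 at -1.47. Without Psap, added after seeing the data, P-IV.II was at -0.40, P-IV.I at -0.86 and PcDC1 at -0.98.

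With the replicate number as a block, P-IV.I against P-IV.II gave 7 calls (Lamp1, Tpp1, Grn and Atp6v1b2 as lower beside the 3 higher genes), P-IV.I minus PcDC2 gave 2 (Lamp1 and Psap), the interaction gave 1 (Lamp1), and the pair contrast 19. Same-numbered libraries did not deviate together throughout: correlations of deviations ran from 0.336 to 0.711 among SPM, P-IV.II and P-IV.I and from -0.284 to 0.053 with PcDC2, so the numbers were not taken as pairs.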

Other observations

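The PcDC1 library showed different positions for other parts of lysosomal biology, given here as values of 1 library with no test. Of 15 tested genes that sort enzymes to lysosomes, 11 were below all 8 other libraries, and of 24 further membrane proteins 14 were. Of 11 further proton pump subunits, 5 were above all other libraries and 3 below, and of 16 nutrient-sensing genes 7 were above and 5 below. The shares over all tested genes were 39.2% below and 26.9% above. Atp6v0e, a small subunit of the membrane sector named after its values were seen, was at 1154 FPKM in PcDC1 and at most 292 in the others, whereas Atp6v0a1, a large subunit of the same sector, was at 2.61 FPKM against a lowest other value of 14.1.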
